A study of Caenorhabditis elegans with 2 samples.

Results

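MicroRNA precursor genes are short loci whose transcripts fold into hairpins, and 261 of the 46890 genes annotated for Caenorhabditis elegans are of this kind. The starts of these 261 genes were set against the binding sites of LIN-35, mapped by chromatin immunoprecipitation with sequencing (ChIP-seq). The members were all genes of biotype miRNA in the Ensembl annotation of WBcel235, the assembly that ce11 also names. No gene carries the biotype pre_miRNA, but each of the 261 has a transcript of that biotype. The window of a gene began 1000 bp upstream of its start and ended 200 bp downstream. A gene was counted as having a summit when the point of highest signal of a peak fell in its window. The annotated start is in nearly all cases the end of the hairpin, since only 7 of the 261 genes have an annotated primary transcript. The true transcription start can therefore lie upstream of the position used.

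The material was whole L1 larvae of strain YL398, both sexes together and of unknown age, with 2 biological replicates that form 1 group. The worms carry unc-119(ed3) on chromosome III and the transgene vrIs55, in which the ges-1 promoter drives LIN-35 with a GFP and FLAG tag. The transgene also holds the 3'UTR of lin-35 and the marker unc-119(+). The ges-1 promoter is active in the gut, so the fusion is expected mainly in gut cells of a whole animal. One label gives lin-35 as the antibody target and another the eGFP fusion, so whether LIN-35 from the endogenous gene was also precipitated was not tested. There was no other genotype, stage or factor to compare with, and no expression was measured, so neither the cells that gave the peaks nor the activity of any microRNA was checked. With peaks from whole larvae, a site occupied in fewer cells and a site occupied less in each cell cannot be told apart.

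MicroRNAs are made from primary transcripts that Drosha and its partner Pasha cut into hairpins, which Dicer then cuts into a mature strand. An Argonaute protein carries that strand to messenger RNAs that match its seed, the stretch near the 5′ end that does most of the pairing. Genes with the same or a similar seed are grouped as a family. LIN-35 is a retinoblastoma-like pocket protein. It works in the DREAM complex, which keeps cell cycle and germline genes low in somatic cells.

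The mir-51 family is shown first because all 6 of its genes had a reproducible summit in their window. The mature strands, with bases 2 to 8 in capitals, are given 5′ to 3′ as read from the RefSeq genome on WBcel235 at the annotated positions. The shared seed is ACCCGUA, and it lies in the 5p arm of mir-51, mir-52 and mir-53 (chromosome IV) and in the 3p arm of mir-54, mir-55 and mir-56 (chromosome X).
mir-51: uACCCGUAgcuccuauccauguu
mir-52: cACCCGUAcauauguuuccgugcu
mir-53: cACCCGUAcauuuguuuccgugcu
mir-54: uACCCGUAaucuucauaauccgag
mir-55: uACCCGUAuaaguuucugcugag
mir-56: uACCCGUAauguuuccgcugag

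The mir-64 family, with the seed AUGACAC, is shown because 4 of its 5 genes lie together on chromosome III behind a single strong summit, while mir-63 lies alone on chromosome X with no summit in its window. The strand printed, for 4 genes of the family, is the arm that holds the shared seed.
mir-229: aAUGACACugguuaucuuuuccaucg
mir-64: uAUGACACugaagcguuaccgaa
mir-66: cAUGACACugauuagggauguga
mir-63: uAUGACACugaagcgaguuggaaa

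Another set shares the seed UUGUACU and had a summit at each of its 3 genes, on chromosomes III and X. These 3 genes were picked out after their values were seen.
mir-238: uUUGUACUccgaugccauucaga
mir-239.1: uUUGUACUacacauagguacugg
mir-239.2: uUUGUACUacacaaaaguacug

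The last pair makes the same mature 3p strand from separate sites on chromosome II, and only the first of them had a summit in its window.
mir-44: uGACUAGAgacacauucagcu
mir-45: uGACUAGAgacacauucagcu

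Across the 458 annotated mature arms there were 374 different seeds, and 46 of these were shared by at least 2 genes. Of the shared seeds, 20 had at least 1 gene with a summit, and for 3 seeds every gene had one. A shared seed has several windows in which a summit can fall, and by single genes the share with a summit was 20.3%. Some genes, such as mir-44 and mir-47, count under 2 shared seeds, and some genes of a seed share a summit. These counts are thus a description only.

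Of the 261 microRNA genes, 53 had a reproducible LIN-35 summit in the window (20.3%, 95% Wilson interval 15.9 to 25.6%). The reproducible list is the authors' list of 6712 peaks thresholded by the irreproducible discovery rate over both replicates. In the same kind of window, 22.4% of 19973 protein-coding genes had such a summit. For all 31266 genes other than microRNA and piRNA genes the share was 20.1%. The share of microRNA genes is thus close to the background, and the interval includes both values. Intervals are over genes and cover counting error only. The windows of neighbouring microRNA genes overlap, and the starts of 56 members lie in the window of another member, so the members are not independent.

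The 53 genes drew on 45 different summits, since 7 summits fell in the windows of 2 to 4 genes at once. Conversely, 4 genes had 2 reproducible summits in the window. Merged into 276801 bp, the microRNA windows held 16.3 reproducible summits per 100 kb, against 6.69 per 100 kb over the genome. The genome value is not one of windows at gene starts, and no density is given here for protein-coding windows. By gene, the shares in like windows were 20.3% for microRNA genes and 22.4% for protein-coding genes.

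The unit of the peak signal is the authors' enrichment value, which ranks peaks within a list and is not comparable in size between lists. The read depth behind it is unknown. In the reproducible list the 45 summits had a median signal of 92.2, with a range of 46 to 1657. All 6712 reproducible summits had a median of 98.5 and a range of 45.9 to 4903. Of the 45 microRNA summits, 5 were among the 671 strongest of the list (11.1%), which make up 10% of it.

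Each replicate was also taken as its own 6712 strongest peaks. By replicate 1 alone 49 of the 261 genes had a summit (18.8%), against 22.4% of protein-coding genes, and by replicate 2 alone 48 had one (18.4%), against 20% of protein-coding genes. Of the 53 genes with a reproducible summit, 49 had one in the strongest list of replicate 1, 39 in that of replicate 2 and 35 in both. Counted by peak overlap, 42 of the 45 microRNA sites were in the strongest list of replicate 1 (93.3%), 34 in that of replicate 2 (75.6%) and 31 in both (68.9%). Over all 6712 reproducible peaks, 96.5% overlapped the strongest list of replicate 1, 73% that of replicate 2 and 69.9% both. Ranks given below for a replicate are those of the strongest peak summit in the window, unless stated otherwise. The full lists of replicate 1 (30000 peaks) and replicate 2 (26341 peaks) reach much weaker peaks. In them 116 members (44.4%) and 96 members (36.8%) had a summit, where the shares of protein-coding genes were 42.7% and 41.1%.

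Among the 208 genes without a reproducible summit, none had a summit in the strongest list of replicate 1 and 9 had one in that of replicate 2. Those 9 ranked between 2164 and 6646 in replicate 2 and between 6843 and 26991 in replicate 1. In the relaxed list of both replicates pooled, 119 of the 261 genes had a summit (45.6%), against 42.7% of protein-coding genes, and 66 of the 208 were among them. With the 3356 strongest peaks of the reproducible list, 27 genes kept a summit (10.3%), against 14.4% of protein-coding genes.

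**Figure D1:**
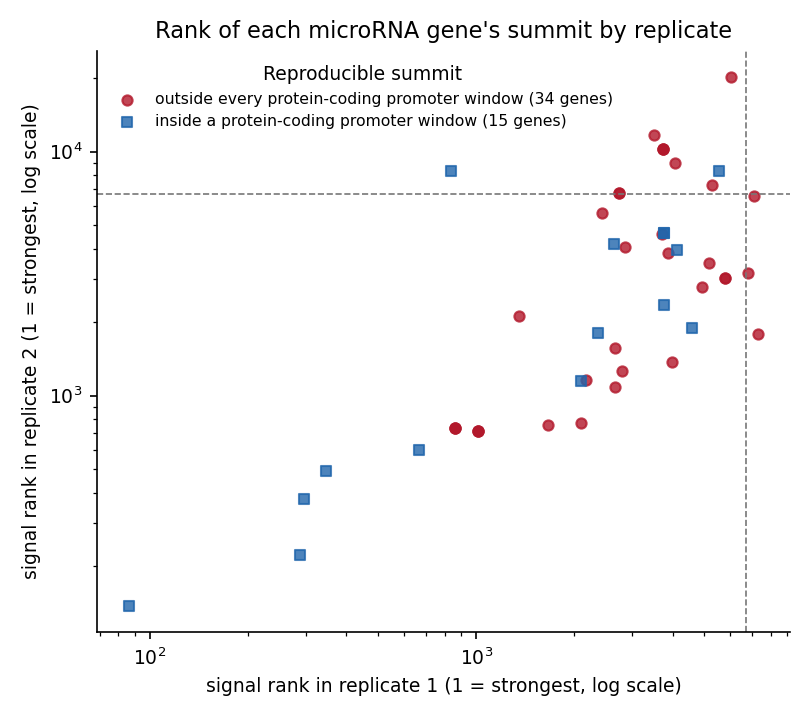
Signal rank of the strongest peak summit in each microRNA window in replicate 1 (x axis, log scale) and replicate 2 (y axis, log scale), where rank 1 is the strongest peak, for the genes with a reproducible summit that have a summit in both full lists. Red circles are genes whose reproducible summit lies outside every protein-coding promoter window and blue squares those inside one; dashed lines mark rank 6712. The highest ranks go together in both replicates, with mir-5549 at rank 86 in replicate 1 and 137 in replicate 2, while several weaker sites rank below 6712 in replicate 2.

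Many microRNA genes lie beside or inside protein-coding genes, so each summit was also placed relative to the promoter windows of protein-coding transcripts, which reach 500 bp upstream and 200 bp downstream of a start. Of the 45 summits, 29 lay outside every such window and 16 inside one. Over all 6712 reproducible summits, 49.5% lay outside. By genes, 36 of the 53 had a summit outside protein-coding promoters (67.9%, interval 54.5 to 78.9%) and 17 had summits only inside them. Genes that share a summit each count here, so this share is not comparable with the 49.5% of summits. For the 29 outside summits the nearest protein-coding start was a median of 3685 bp away, with a range of 538 to 20225 bp.

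The outside summits were of middling strength. They had a median signal of 89.7 and a range of 46 to 343, beside a median of 84.1 for all 3323 reproducible summits outside protein-coding promoters. The 16 summits inside promoters reached from 48.3 to 1657 with a median of 125, beside a median of 122 for all 3389 such summits. Both kinds of microRNA summit thus had medians near those of the same kind of summit elsewhere. The 5 strongest summits in microRNA windows all lay in a protein-coding promoter window.

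Outside summits sat upstream of the hairpin, which is largely set by windows that reach 1000 bp upstream and only 200 bp downstream. With negative positions upstream of the gene start, the strongest outside summit per gene lay at a median of -280 bp, with quartiles of -521 and -168 bp and a range of -938 to -38 bp. For the 17 genes with only promoter summits the median was -265 bp and the range -987 to 77 bp. In bins of 250 bp, the bin just upstream of the start held 7.66 summits per 100 microRNA starts, and 11.4 per 100 protein-coding starts. A summit shared by several microRNA genes counts here once for each of them. The next bin upstream held 7.28 per 100 microRNA starts, and 5.63 per 100 protein-coding starts. From the start to 250 bp downstream the values were 1.53 and 1.7. They were 2.68 and 0.771 from 250 to 500 bp downstream, and 2.68 and 0.996 from 500 to 750 bp.

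**Figure D2:**
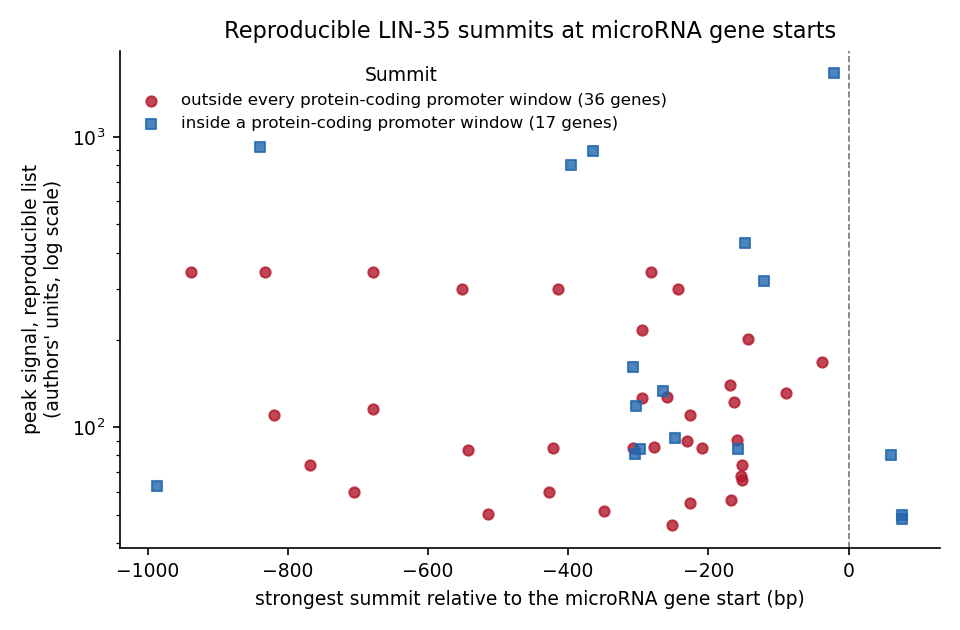
Position of the strongest reproducible summit relative to the microRNA gene start (x axis, bp, negative upstream) and its peak signal (y axis, authors' units, log scale) for the 53 genes with a summit. Red circles (36 genes) are summits outside every protein-coding promoter window, with signals up to 343, and blue squares (17 genes) are summits inside one, which include the 5 strongest, up to 1657 at mir-5549.

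The number in a microRNA's name roughly follows the order of discovery: low numbers were given to the genes cloned first, and numbers of 1000 and above mostly to hairpins found later by deep sequencing. The 2 classes had their summits in different places. Of 137 genes numbered below 1000 (with let-7, lin-4 and lsy-6), 36 had a summit (26.3%, interval 19.6 to 34.2%). For 32 of these genes it lay outside protein-coding promoters (23.4%), and for 4 only inside. Of 123 genes numbered 1000 and above, 17 had a summit (13.8%, interval 8.81 to 21%). For 4 of them it lay outside (3.25%, interval 1.27 to 8.06%) and for 13 only inside (10.6%). The intervals of the outside shares do not overlap, but they count every gene, and these shares were not counted with each cluster once. Several low-numbered genes share a summit within a cluster. With each cluster counted once, by the number of its first gene, 24 of 108 units numbered below 1000 (22.2%, interval 15.4 to 30.9%) and 17 of 107 units from 1000 (15.9%, interval 10.2 to 24%) had a summit, and these intervals overlap. Those counts take summits inside and outside promoters together, so they do not bear on the outside shares. Over all 216 units, 25 had a summit outside promoters (11.6%, interval 7.96 to 16.5%). One gene has no number, and it had no summit.

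The profile of summits around the starts also differed between these classes, but it does not separate summits inside promoters from those outside. In it, a summit shared by several microRNA genes counts once for each of them. Genes numbered below 1000 had 10.9 summits per 100 starts in the first 250 bp upstream and 8.76 in the next bin, and genes numbered 1000 and above had 4.07 and 5.69. In the relaxed pooled list, 72 of the 137 genes numbered below 1000 (52.6%) and 47 of the 123 genes numbered 1000 and above (38.2%) had a summit.

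**Figure D3:**
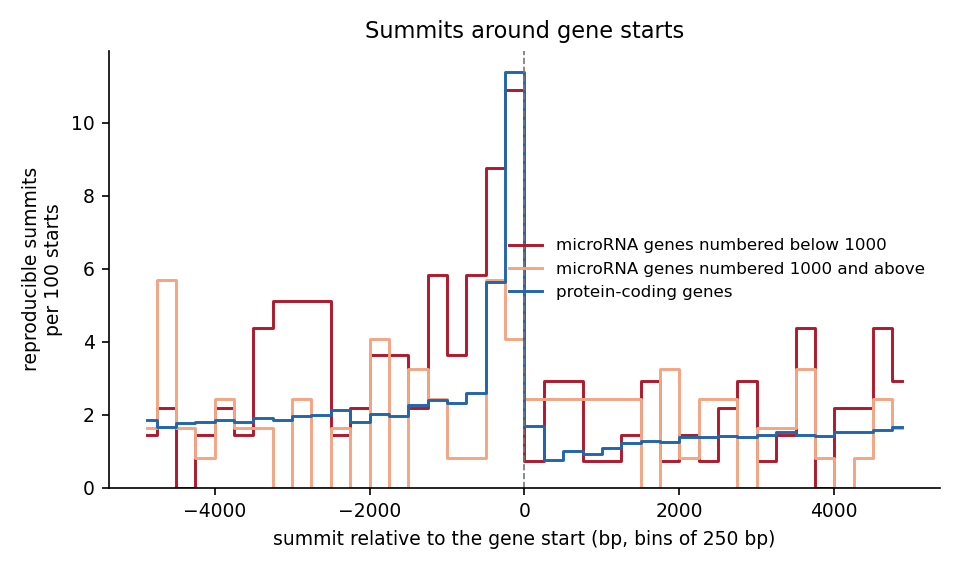
Reproducible summits per 100 gene starts in bins of 250 bp from 5000 bp upstream (negative) to 5000 bp downstream, for microRNA genes numbered below 1000 (dark red), microRNA genes numbered 1000 and above (orange) and protein-coding genes (blue). The low-numbered microRNA genes reach 10.9 and the protein-coding genes 11.4 in the bin just upstream of the start, where the high-numbered microRNA genes reach 4.07. A summit shared by several microRNA genes counts once for each of them.

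**Figure D4:**
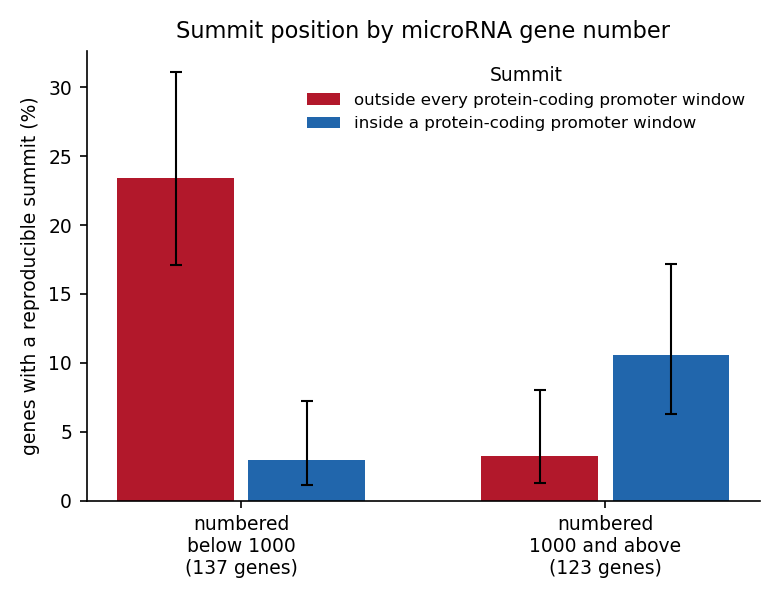
Share of genes with a reproducible summit (bars from 0, in percent) for 137 microRNA genes numbered below 1000 and 123 numbered 1000 and above. Red bars are genes with a summit outside every protein-coding promoter window (23.4% and 3.25%), blue bars genes with summits only inside one (2.92% and 10.6%), and black lines 95% Wilson intervals over genes.

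By genomic setting the shares were close to each other. Of 74 members inside a protein-coding gene on the same strand, 68 of them in an intron, 16 had a summit (21.6%). Of 32 members inside a gene on the other strand, 5 had one (15.6%), and of 155 members inside no protein-coding gene, 32 had one (20.6%). The hosts' own promoters held a summit for 29 of the 74 same-strand members, some of which share a host. With each host counted once, 23 of 67 host promoters held one (34.3%, interval 24.1 to 46.3%), beside 19.9% of all protein-coding genes by name. For 12 of the 16 same-strand members with a summit the host promoter held one too, but these are not 12 separate cases. At mir-354, mir-4929, mir-4920, mir-8207 and mir-253 the member's own summit lay in the promoter window of the host. The 4 genes mir-229, mir-64, mir-65 and mir-66 share 1 summit and the host gcn-1.

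By chromosome, the share ran from 14.3% (4 of 28 genes) on V to 40.7% (11 of 27) on III. Protein-coding genes had 16.8% on V and 32.2% on III. On X, which holds the most microRNA genes, 11 of 74 had a summit (14.9%), against 19.2% of protein-coding genes. The high share on III includes 4 genes that share the summit at mir-229, so the number of separate sites is smaller.

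MicroRNA genes often stand in clusters that are copied as a single transcript. Same-strand members with gaps of at most 5000 bp were grouped, which gave 24 clusters of 2 or more genes with 69 members, and 192 single genes. Of the 24 clusters 9 had a summit (37.5%, interval 21.2 to 57.3%), and of the single genes 32 did (16.7%, interval 12.1 to 22.6%). A cluster has several windows and so more sequence in which a summit can fall. In all 9 clusters the first gene in the direction of transcription had a summit, and no cluster had one only at a later gene. This is partly set by the windows. Some of these clusters span less than 1000 bp, so a summit ahead of the first gene can fall in several windows. Of the 45 later genes 12 had a summit in the window. Among these 12, only mir-80, mir-51 and mir-75 had a summit that was not also in the window of the first gene. Counted with each cluster once, 41 of 216 units had a summit (19%).

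Among the clusters without a reproducible summit were the 7 genes from mir-35 to mir-41, the let-7 family pair mir-241 and mir-48, the pair mir-240 and mir-786, and a run of 11 genes on X that begins with mir-4807.

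Stretches of 61 bases centred on the summit are shown for 7 sites outside protein-coding promoters. The sites are among the strongest of microRNA genes and overlap no annotated exon. Those of mir-8186.2 (signal 217) and mir-2214 (168) are not shown, although they overlap no exon and are stronger than that of mir-60 (131). The 7 are thus a selection, and the share of them with a given word is no measure of all sites. The stretches are on the strand of the gene, 5′ to 3′, in the ce11 build, from the RefSeq genome. Capitals mark runs of CTCTCT, a repeat that was looked for only after these sequences had been read. The sites lie at III:2172140-2172200 for mir-229, X:13145308-13145368 for mir-54, IV:11027804-11027864 for mir-53, II:6328858-6328918 for mir-60, III:8865596-8865656 for mir-80, IV:3232930-3232990 for mir-58.1 and III:8867558-8867618 for mir-238.
mir-229: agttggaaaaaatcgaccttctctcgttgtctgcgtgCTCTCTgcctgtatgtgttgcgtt
mir-54: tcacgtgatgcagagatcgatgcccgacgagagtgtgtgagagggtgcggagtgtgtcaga
mir-53: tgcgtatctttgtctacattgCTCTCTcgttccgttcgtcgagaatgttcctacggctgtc
mir-60: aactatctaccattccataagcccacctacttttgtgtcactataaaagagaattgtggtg
mir-80: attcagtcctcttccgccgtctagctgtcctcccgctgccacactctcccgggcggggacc
mir-58.1: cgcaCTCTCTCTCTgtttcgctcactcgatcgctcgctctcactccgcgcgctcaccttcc
mir-238: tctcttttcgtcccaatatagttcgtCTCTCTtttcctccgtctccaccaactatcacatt

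The mir-51 family, the worm relatives of the miR-100 family of other animals, act redundantly and are needed for embryonic development. Its 6 genes stand at 3 loci. The mir-54, mir-55 and mir-56 cluster, on the minus strand of X inside an intron of F09A5.3 on the other strand, shared a summit of signal 299 (rank 975). This summit lay at -244 bp of mir-54, the first gene of the cluster, and 3737 bp from the nearest protein-coding start. The peak had a signal of 263 at rank 1013 in replicate 1 and of 33.9 at rank 712 in replicate 2. A second, weaker summit of signal 55.6 also fell in all 3 windows.

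On chromosome IV, mir-53 had a summit of signal 201 (rank 1526) at -143 bp. Its signal was 170 in replicate 1 (rank 1665) and 32.2 in replicate 2 (rank 759). Also on IV, mir-52 had 2 summits, of signal 140 at -169 bp and of signal 127, in a region whose nearest protein-coding start is 9941 bp away. The replicate peaks that overlap the first of these ranked 2324 in replicate 1 and 1156 in replicate 2. The weakest of the family was mir-51, with a signal of 74.1 (rank 4429) at -768 bp. It lay at rank 3935 in replicate 1 and had no overlapping peak in the full list of replicate 2. The other 5 genes had a summit in the strongest lists of both replicates.

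In the mir-64 family, the 4 clustered genes, of which mir-229 is the first and mir-66 the last, lie in an intron of gcn-1, on its strand. Their summit had a signal of 343 (rank 849), the highest among summits outside protein-coding promoters in microRNA windows. It lay at -282 bp of mir-229 and 20225 bp from the nearest protein-coding start, that of gcn-1, which encodes a translation regulator and had a summit of signal 1588 at its own promoter. Replicate 1 gave the cluster's peak a signal of 306 (rank 860) and replicate 2 a signal of 33 (rank 737). The summit of replicate 2 lay further upstream, at -347 bp of mir-229, and so outside the window of mir-66, the last gene. The remaining gene, mir-63, had its nearest reproducible summit at -1488 bp, past the edge of the window, and a summit at rank 9432 in replicate 1 and none in replicate 2.

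The mir-58 family, related to bantam of Drosophila, includes some of the most abundant microRNAs of the worm. Of its 5 listed genes with an annotated symbol, 2 had a summit. The genes mir-58c and mir-2209.1 were not on the list but have the seed of mir-58.2, mir-80, mir-81 and mir-82, which is GAGAUCA. Of the 6 genes with this seed only mir-80 had a summit, since the seed of mir-58.1 is GAGAUCG. At mir-58.1 the signal was 126 (rank 2568) at -294 bp, with a signal of 110 in replicate 1 (rank 2674) and 25.5 in replicate 2 (rank 1079). This gene lies in an intron of Y67D8A.2, whose promoter had no reproducible summit. At mir-80 the signal was 127 (rank 2559) at -259 bp, with a signal of 106 in replicate 1 (rank 2790) and 23 in replicate 2 (rank 1256). Both sites were thus higher in the order of replicate 2 than in that of replicate 1. The genes mir-58.2, mir-81 and mir-82 had their nearest reproducible summits downstream of the start, at 4568, 1664 and 2618 bp.

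In the mir-44 family, mir-44 had a summit of signal 84.8 at -421 bp, shared with mir-42 and mir-43 of the same cluster, at rank 3731 in replicate 1 and 10286 in replicate 2. For mir-61 the summit of signal 84.3 at -157 bp lay in the promoter window of F55A11.4. At mir-45 the nearest summit lay 248 bp downstream of the start, just past the window, with a signal of 79.2. At mir-247 it lay at -7708 bp.

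Of the mir-35 family, which is needed in the early embryo, only mir-42 had a summit, the one shared with mir-43 and mir-44. The other 7 genes form 1 cluster, and their nearest reproducible summit, of signal 529, lay at -2574 bp of mir-35. In their shared windows replicate 1 had a peak at rank 27266 and replicate 2 had none.

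None of the 7 let-7 family genes and neither lin-4 family gene had a reproducible summit. These families time larval development, lin-4 from the end of the first stage and let-7 in later stages. The 7 listed genes include mir-793 and mir-794, whose seeds differ from that of let-7. For let-7, whose annotated start is that of a primary transcript, the nearest summit lay at -1852 bp with a signal of 322. For lin-4 it lay 5417 bp downstream of the start and for its relative mir-237 611 bp downstream. The windows of mir-48, mir-84, mir-241, mir-793, mir-794 and mir-795 held no summit in the full list of replicate 1, and in replicate 2 mir-241 and mir-794 had summits at ranks 21910 and 16294. No summit of either full list fell in the windows of let-7 and lin-4.

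**Figure D5:**
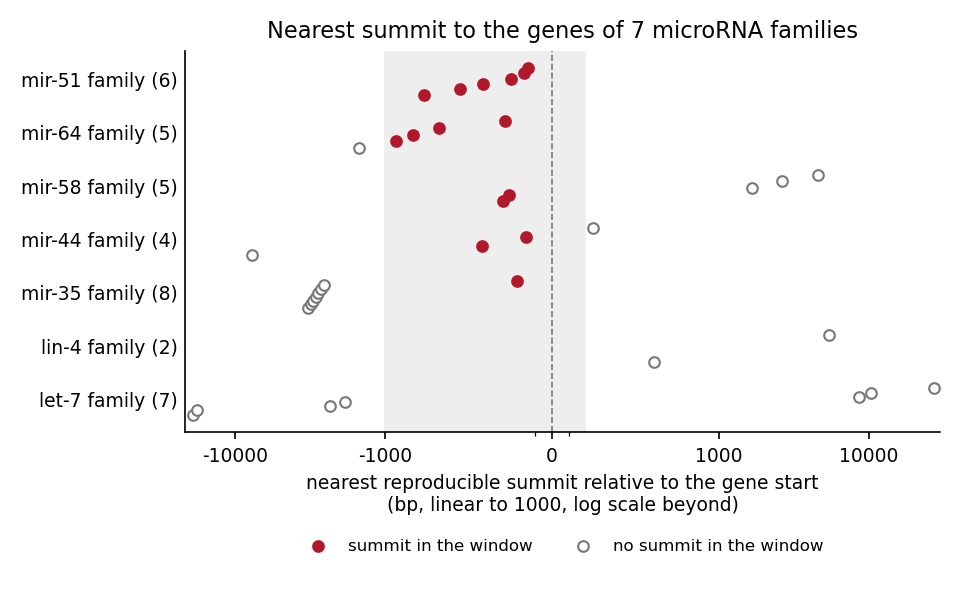
Position of the nearest reproducible summit relative to the gene start (x axis, bp, linear to 1000 and log scale beyond, negative upstream) for the listed genes of 7 microRNA families, with the number of genes in parentheses (mir-58c is not among them). Filled red circles are genes with the summit in the window from -1000 to 200 bp (grey band), open circles genes without; points are spread vertically within a family only for legibility. All 6 genes of the mir-51 family lie in the band and no gene of the lin-4 and let-7 families does.

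Of 10 well-studied genes outside these families, 5 had a summit, beside 20.3% of all microRNA genes and 26.3% of those numbered below 1000. The gut microRNA mir-60 had the highest, with a signal of 131 (rank 2461) at -89 bp and 2453 bp from the nearest protein-coding start. Its signal was 110 in replicate 1 (rank 2672) and 19.6 in replicate 2 (rank 1562). Next came mir-83, the worm relative of miR-29, with a signal of 90.2 at -159 bp, at rank 3979 in replicate 1 and 1373 in replicate 2. The conserved mir-34, whose relatives act in the p53 response of mammals, had a signal of 83.8 at -543 bp, with ranks of 3708 and 4609 in replicates 1 and 2. The glial microRNA mir-228 had a signal of 55 at -226 bp, at rank 5268 in replicate 1. The replicate 2 peak that overlaps this site ranked 9276, and the strongest replicate 2 peak in the window, at -736 bp, ranked 7284.

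The weakest of the 5 was mir-71, which lengthens lifespan, with a signal of 51.6 at -349 bp. The overlapping peak ranked 7327 in replicate 1, with its summit at -171 bp, and 1780 in replicate 2, with its summit at -324 bp, so the replicates placed the summit apart. The muscle microRNA mir-1, the neuronal genes mir-124 and lsy-6, and the pair mir-240 and mir-786, the second of which acts in the gut, had no reproducible summit. Of these 5, mir-1 had the closest one, at -8423 bp, and mir-240 the farthest, at 19418 bp.

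Outside the families, the 5 strongest summits all lay inside a protein-coding promoter window. For mir-5549 and mir-5595 the microRNA start was nevertheless nearer to the summit than any protein-coding start. At mir-5549 the signal was 1657 (rank 88), 1571 in replicate 1 (rank 86) and 92.5 in replicate 2 (rank 137). The summit, at -21 bp, lay in the promoter windows of rfc-4, a subunit of the clamp loader of DNA replication, and eef-1A.1, a translation elongation factor. At mir-354 the signal was 923, in the promoter windows of its host rps-20, a ribosomal protein gene, and of ekl-4. At mir-2207 it was 894, in the promoter window of the nucleoporin gene npp-5, at mir-2213 it was 804, in that of panl-2, and at mir-5595 it was 433, in that of the chromatin remodelling gene nurf-1. These 5 genes ranked between 86 and 667 in replicate 1 and between 137 and 596 in replicate 2, so both replicates placed them high.

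At mir-2218.1 a summit of signal 319, in the promoter windows of W09G3.8 and maea-1, ranked 837 in replicate 1 but 8330 in replicate 2. Further promoter summits were those of mir-4936 (signal 162, at nduf-9) and mir-4929 (signal 133, at its host E01G4.3). Outside promoters stood mir-8186.2, with a signal of 217 at -294 bp and 547 bp from the start of gmeb-1, and mir-2214, with 168 at -38 bp in an intron of B0361.11. The outside summit of mir-47 had a signal of 116 at -679 bp, at rank 2865 in replicate 1 and 4065 in replicate 2. The weakest of all was mir-2216, with a signal of 46 (rank 6700).

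The UUGUACU genes, shown above, were at mid-range. At mir-238, which lies upstream of mir-80 in the same cluster, the signal was 122 at -163 bp, with ranks of 2424 in replicate 1 and 5631 in replicate 2. The divergent genes mir-239.1 and mir-239.2 shared a summit of signal 110, at -820 bp of mir-239.1 and -226 bp of mir-239.2. Its peak ranked 2747 in replicate 1. The replicate 2 peak that overlaps it ranked 8163, and a different replicate 2 peak in both windows ranked 6743.

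The other genes with a summit, named here after their values were seen, had signals of 118 and below. Outside promoters these were mir-79 with a signal of 89.7, mir-90 with 85.4, mir-800 with 74, mir-75 with 67.9, mir-72 with 65.9, the pair mir-73 and mir-74 with a shared 59.8, mir-235 with 56.4 and mir-8210 with 50.2. The microRNA mir-235, a relative of miR-92, holds starved L1 larvae in developmental arrest. Its summit at -167 bp ranked 6052 in replicate 1 and 20210 in replicate 2. Likewise mir-79 ranked 3506 in replicate 1 and 11690 in replicate 2, while mir-75 ranked 4934 in replicate 1 and 2790 in replicate 2. Inside promoters were mir-5551, mir-4920, mir-253, mir-4934, mir-1832.2, mir-8207 and mir-4932, with signals from 48.3 to 118, and mir-250, which shares the summit of mir-61.

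At the upstream edge of the window, mir-1832.2 was just inside with a summit at -987 bp, and mir-353 at -1011 bp and mir-392 at -1043 bp were just outside. At the downstream edge, mir-8207 and mir-4932 were inside at 77 bp, and mir-45 was outside at 248 bp. Of the 208 genes without a summit in the window, 89 had a reproducible summit within 5000 bp of the start, and the median distance to the nearest was 6774 bp.

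The sequence within 100 bp of each summit was searched on both strands for words of factors known to act in the gut or with LIN-35. A match is a description of the letters and not a site. The gut GATA word TGATAA was found at 3 of the 29 summits outside protein-coding promoters (10.3%, interval 3.58 to 26.4%), beside 32.5% of all reproducible summits outside promoters. It was found at 5 of all 45 microRNA summits (11.1%, interval 4.84 to 23.5%), beside 28.1% of all reproducible summits. Both intervals lie below the share they stand beside, and neither difference was tested. With 50 bp on either side the word was at 2 of the 29 (6.9%, interval 1.91 to 22%), beside 20.9%, and with replicate 1 alone at 4 of 26 (15.4%, interval 6.15 to 33.5%), beside 31.4%, where the interval includes the background share in both cases. With replicate 2 alone it was at 4 of 27 (14.8%, interval 5.92 to 32.5%), beside 37.1%. The 3 outside summits with the word were those of mir-60, mir-34 and mir-75.

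The cell cycle homology region, searched as TTTGAA and TTCGAA, was found at 10 of the 29 (34.5%, interval 19.9 to 52.7%), beside 39.4% of all summits outside promoters. Of all 45 it was at 20 (44.4%), beside 43.9% of all summits. The E2F words TTTCCCGC, TTTCGCGC, TTTGGCGC and TTTGCCGC were at 2 of the 29 (6.9%), those of mir-229 and mir-228, beside 5.99%, and at 5 of the 45 (11.1%), beside 6.93%. The intervals of both words include the background shares. The repeat CTCTCT was at 14 of the 29 (48.3%, interval 31.4 to 65.6%), beside 32.9%, and at 20 of the 45 (44.4%, interval 30.9 to 58.8%), beside 28.9%. Since it was chosen from the sequences themselves, its share is given as a description.

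The protein-coding genes through which microRNAs are made and act were listed apart from these starts. Of 20 such genes, 10 had a reproducible summit in the same kind of window, beside the 22.4% of all protein-coding genes given above. In biogenesis, pash-1, which encodes Pasha, had a signal of 2146 (rank 38) and dcr-1, which encodes Dicer, one of 110 (rank 3008), while drsh-1, which encodes Drosha, had none. The window of dcr-1 held no summit in the strongest list of replicate 2. Of 8 effector genes, 5 had a summit, from tsn-1 with 285 and ain-1 with 360 to nhl-2 with 743, cgh-1 with 1400 and vig-1 with 2143 (rank 39). The Argonaute genes alg-1 and alg-2 and the GW182-like ain-2 had none, although alg-2 had a summit in the strongest list of replicate 2. The turnover genes xrn-2 and paxt-1 had none. The let-7 regulator lin-28 had a signal of 155, and of 6 known targets lin-14 had 95.1 and hbl-1 58.5, while lin-41, daf-12, let-60 and cog-1 had none. The summits at pash-1 and vig-1 had higher signals than any at a microRNA gene. By position, the summits of dcr-1, pash-1 and lin-14 lay at -86, -95 and -189 bp. Those of tsn-1, vig-1 and lin-28 lay at -281, -419 and -534 bp. Further upstream were those of cgh-1, nhl-2, hbl-1 and ain-1, at -795, -851, -863 and -991 bp. Whether any of them lies in the promoter window of a neighbouring gene is not given for these genes.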

How the data were processed

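The data were ChIP-seq peak lists of 2 biological replicates of L1 larvae. Per the notes deposited with the files, the authors made a relaxed list per replicate, a relaxed pooled list and, from these 3, a list of peaks passing a threshold on the irreproducible discovery rate. Peaks were called against a control alignment not used here. The deposited signal is the authors' enrichment value per peak. The read depth is unknown, and no aligner, peak caller or threshold is given in the sources used here. Only ce11 lists were used.

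Summits (peak start plus the deposited offset) were assigned to windows around gene starts of Ensembl release 115. Symbols came from RefSeq by WormBase identifier and matched for 261 of 261 genes. Every summit in a window counted, whichever gene was nearer. A family entry, mir-1834, matched no symbol. The mature sequence of 1 clustered family member is not reported here. The strongest list of a replicate is its 6712 peaks of highest signal. No test between groups was possible with 1 group. The members and lists were chosen with earlier results of these data known. Named members are those at the 15 strongest summits, those of the listed families, the 15 strongest with a summit outside protein-coding promoters and in the strongest lists of both replicates, and the first and last by signal. All other members named were chosen after their values were seen.

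Alternatives were other windows, stricter or relaxed lists, each replicate alone, other cluster gaps and promoter windows, and narrower motif searches. Window assignment and motif search were tested on simulated data, where 100 of 100 planted summits and 200 of 200 planted words of each motif were recovered. Of 85 summits planted 1 bp outside a window, 0 were counted. The simulated data used the same windows and exact words, so they check the code only. Computation used Python 3.11.15, numpy 2.4.6, scipy 1.17.1 and matplotlib 3.10.9.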

Additional observations from a re-analysis of the deposited data

How the results depend on the processing

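The share of microRNA genes with a summit followed the window and the list. It was 15.7% with 500 bp upstream (18.4% of protein-coding genes), 9.2% within 250 bp on either side (13.1%) and 27.6% with 2000 bp upstream (28%). It was 10.3% with the 3356 strongest peaks of the list, 45.6% with the relaxed pooled list and 14.2% with peaks in the strongest lists of both replicates (16.6%). For genes numbered below 1000 it was 19% with 500 bp upstream, 11.7% within 250 bp and 32.8% with 2000 bp upstream. For those numbered 1000 and above it was 12.2%, 6.5% and 22% in the same windows. Within 50 bp of outside summits the cell cycle homology region was at 17.2% (20.2% of all outside summits), the CT repeat at 31% (21%) and the GATA word at 6.9% (20.9%).

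With each replicate alone, the ranges were 18.4 to 18.8% for all genes, 17.1 to 18.5% for clusters counted once, 30 to 34 genes outside promoters, 23.4 to 25.5% below number 1000, 11.4 to 13% from 1000, 16.2 to 25.7% on the host's strand, 12.5 to 15.6% on the other strand and 16.1 to 20.6% outside hosts. For words at outside summits they were 14.8 to 15.4% (GATA, beside 31.4% in replicate 1 and 37.1% in replicate 2), 25.9 to 34.6% (cell cycle homology region), 0 to 7.69% (E2F, 0 in replicate 2) and 40.7 to 46.2% (CT repeat).

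Of the 53 genes, 8 kept a summit under all 8 alternatives run per gene, namely mir-52, mir-53, mir-54, mir-60, mir-238, mir-2214, mir-5549 and mir-5595. No paired analysis was possible because there was 1 group.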
